A study of Rattus norvegicus with 8 samples.

Results

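The meiosis genes described here are 34 genes that build the chromosome axis and synaptonemal complex, make and repair meiotic DNA breaks, or steer the entry into meiosis. They were found by matching their symbols in the count table, which gave 33 of the 34 among 24059 genes, each with 1 row. Syce2, which encodes a central element protein of the synaptonemal complex, matched no symbol and was not analysed here. The other 33 all passed the filter on low counts, so no member was lost to it.

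Transcripts were measured by sequencing of polyA RNA from GFP-positive germ cells of the testis of transgenic Sprague-Dawley rats (GCS-EGFP), cells that the labels also call SSC. In the doxorubicin group (DXO), rats 2, 3, 6 and 8 had each received 5 mg/kg of the drug in vivo on postnatal day 6, and their cells were taken 24 h later. The control group (CTRL) was made up of rats 1, 4, 5 and 9, given vehicle at the same age and sampled at the same time. All 8 rats carried the reporter, whose promoter is not given in the sources used here. Doxorubicin is an anthracycline that traps topoisomerase II on DNA and leaves strand breaks.

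Meiosis is the pair of divisions that makes haploid germ cells, and in male rodents it begins only after the spermatogonia have divided by mitosis. At the age studied here the germ cells are spermatogonia and their precursors, so the proteins of meiotic prophase are not yet at work. Transcription of many meiosis genes nevertheless starts in spermatogonia, and in mouse retinoic acid acts through STRA8 and MEIOSIN to raise it further at meiotic entry. The roles given below are those known mainly from mouse.

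Depth and cell identity were checked first. Estimated counts per library ran from 41665785 to 58871101 in DXO rats and from 41253848 to 57700969 in CTRL rats, so that 1 CPM, the count scaled to library size, stood for 41.3 counts in the smallest library. CPM values are scaled by TMM factors, and no transcript lengths were at hand, so where a gene is named for the most CPM of its list, that order is not corrected for length and does not rank expression. Summed CPM of 10 pan-germ cell markers was 2642 to 2755 in DXO rats and 2619 to 2730 in CTRL rats, and Ddx4, Dazl and the spermatogonial markers Gfra1, Zbtb16 and Kit were all present. Sertoli markers summed to 54.6 to 66.9 CPM in DXO rats and 52.5 to 64.1 CPM in CTRL rats, and Leydig markers to 5.08 to 11.2 CPM in DXO rats and 7.75 to 9.69 CPM in CTRL rats. Peritubular and stromal markers summed to 56.4 to 73.1 CPM in DXO rats and 63.9 to 79.5 CPM in CTRL rats, and endothelial markers, mostly Pecam1, to 85.0 to 95.1 CPM in DXO rats and 74.2 to 87.3 CPM in CTRL rats. Macrophage and leukocyte markers summed to 4.05 to 4.81 CPM in DXO rats and 3.49 to 4.04 CPM in CTRL rats, and Adgre1 and C1qb were at 0 to 3 counts. Erythroid markers summed to 8.68 to 14.4 CPM in DXO rats and 7.04 to 8.80 CPM in CTRL rats, and the sum was led by Slc4a1, the 1 of 5 tested that passed with edgeR (log2 fold change 1.28, adjusted p = 0.0339). The other 4 had negative values, among them the globin genes Hbb (-1.17, DESeq2 adjusted p = 0.0265) and Hba-a1 (-0.88, DESeq2 adjusted p = 0.0418), which were lower without overlap and were called by DESeq2 but not by edgeR (adjusted p = 0.192 and 0.206). For all genes tested the shares were 0.112% called by edgeR, 0.873% called by DESeq2 and 1.95% lower without overlap. No marker of the other lists of this paragraph passed with either tool. Their part in the results below was not tested. In bulk RNA, fewer cells of a type and less RNA per cell cannot be told apart.

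Markers of cells later than spermatogonia were examined next, and none passed. The acrosomal gene Acrv1 averaged 0.0722 CPM in DXO rats and 0.0814 CPM in CTRL rats, and the sperm tail gene Akap4 averaged 0.0971 and 0.0975 CPM in DXO and CTRL rats. The transition protein gene Tnp1 stood at 1.05 CPM in DXO rats and 1.23 CPM in CTRL rats, and the protamine gene Prm2 at 2.82 and 2.67 CPM in DXO and CTRL rats. Not all late markers were low. In each group 7 of them averaged at least 1 CPM, and Hspa2 and Spaca1 at least 10 CPM. Hspa2 spanned 38.3 to 41.5 CPM in DXO rats and 35.2 to 43.1 CPM in CTRL rats. Piwil1 averaged 6.85 and 7.15 CPM in DXO and CTRL rats. Of the 13 late markers found, 0 of the 11 that were tested passed the threshold with edgeR, 0 had an unadjusted p below 0.05, and 0 passed with DESeq2. Over all genes, 0.112% passed with edgeR and 0.873% with DESeq2. An unadjusted edgeR p below 0.05 was found for 4.19% higher and 2.56% lower. Spaca1 had the most CPM of that list, 43.1 in DXO rats and 43.5 in CTRL rats, and the smallest p belonged to Ldhc and Ccna1, with log2 fold changes of 0.23 ± 0.14 and 0.19 ± 0.12.

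Every member found was detected in every library, and none of them passed the test for a change after doxorubicin. The members were chosen with earlier results of these data known. M1ap, a meiosis gene called higher and described below, is not among them. In DXO rats 31 of the 33 genes averaged at least 1 CPM, 22 at least 10 CPM and 4 at least 100 CPM, and in CTRL rats 31, 23 and 4 did. The 4 were in both groups Tex15, Stag3, Smc1b and Trip13. The exceptions at the low end were Spo11 and Spata22, whose smallest counts were 31 and 22 in DXO rats and 35 and 18 in CTRL rats, above the floor of 3 counts below which a gene would be called undetected. Of the 33 genes, 0 passed an adjusted p of 0.05 with edgeR's quasi-likelihood test over 16976 genes, of which 0.112% passed, and 0 passed with DESeq2, which called 0.873% of the genes it adjusted. At an unadjusted p below 0.05 edgeR found 1 member lower and 0 higher, against 2.56% and 4.19% of all genes tested. The smallest adjusted p among the members was 0.586.

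**Figure D1:**
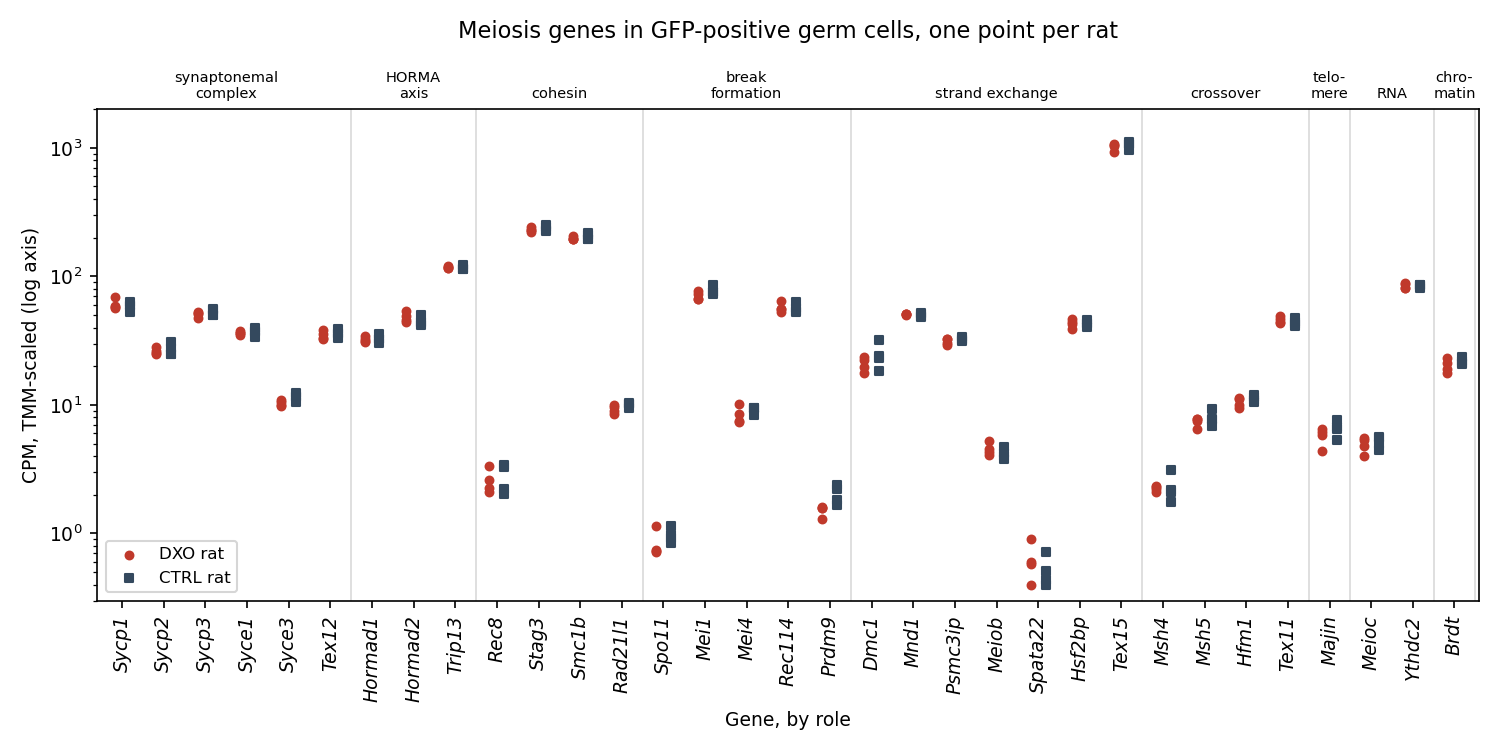
CPM of the 33 meiosis genes (log axis, TMM-scaled) in each DXO rat (red circles) and CTRL rat (grey squares), grouped by role along the x axis. For 32 of the 33 genes the DXO and CTRL points overlap, with Prdm9 as the exception; heights are not comparable between genes, since CPM is not corrected for transcript length.

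The precision was high enough to bound the changes. For 30 of the 33 genes the 95% interval of the fold change lay within 1.5-fold either way, for 21 within 1.25-fold, and for all 33 within 2-fold. The 3 genes whose intervals reached past 1.5-fold were Prdm9, Spo11 and Spata22, all with few counts. The median coefficient of variation between libraries was 7.18% over the members in DXO rats and 6.81% in CTRL rats. Over all genes tested it was 7.95% and 8.28%. The comparison is not matched for counts, whose median in CTRL rats was 1676 for the members and 142 for all 24059 genes.

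**Figure D2:**
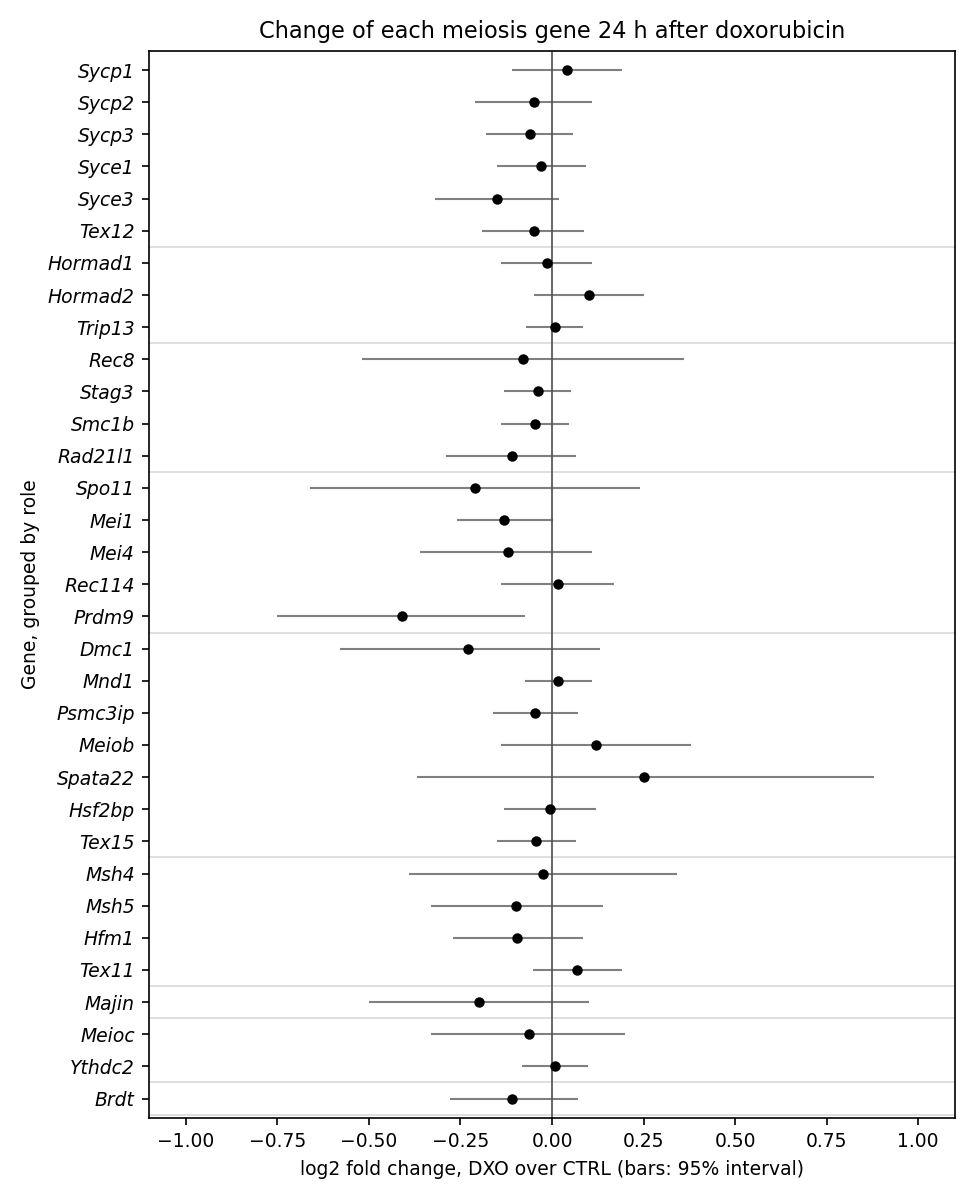
log2 fold change (DXO over CTRL, x axis) of each meiosis gene with its 95% interval from edgeR's quasi-likelihood fit, n = 4 rats per group. Apart from the interval of Prdm9, which runs from -0.75 to -0.075, every interval includes 0.

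Most of the changes had a negative sign and a small size. Of the 33 genes 24 had a negative log2 fold change and 9 a positive one, a share of 72.7% negative against 52.2% over all genes tested, and the median was -0.047 against -0.005 over all genes. The lean was not particular to the members. Negative values made up 78.9% of the 19 chromatin repressors and 66.7% of the 12 mitotic counterparts described below, and 5 of 20 meiotic entry regulators were positive. The share was 54.8% among 31 further meiosis genes and 36.4% among the 11 late markers tested, and 4 of 10 pan-germ cell markers were negative. The values ran from -0.41 for Prdm9 to 0.25 for Spata22, and Prdm9 was the only member outside the span from -0.25 to 0.30 between the 5th and 95th percentiles of all genes tested. The value of Spata22 came to 0.0013 without DXO rat 2, 0.14 without CTRL rat 5, 0.42 without DXO rat 8 and 0.46 without CTRL rat 1. Leaving out CTRL rat 1 brought the count of negative values to 20 and the median to -0.014, leaving out DXO rat 3 or DXO rat 8 brought the median to -0.03, and leaving out CTRL rat 4 brought the count to 26. In the other direction, the median came to -0.068 without CTRL rat 9 and to -0.06 without DXO rat 2. Summed over the 33 genes, CPM was 2303, 2358, 2371 and 2384 in DXO rats 2, 3, 6 and 8, and 2396, 2416, 2430 and 2406 in CTRL rats 1, 4, 5 and 9. Tex15 made up a large part of each sum. Without it the sums were 1370, 1317, 1310 and 1317 in the DXO rats and 1427, 1337, 1352 and 1305 in the CTRL rats, and the groups overlapped.

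**Figure D3:**
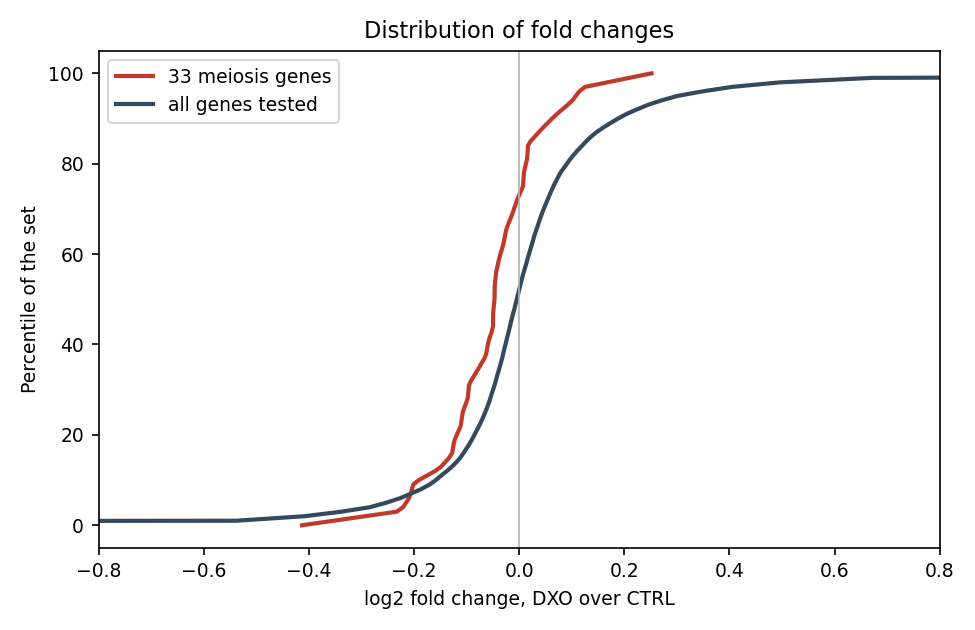
Percentile (y axis) against log2 fold change (DXO over CTRL, x axis) for the 33 meiosis genes (red) and for all 16976 genes tested (dark grey). The red curve lies to the left over most of its height, and its median is -0.047 against -0.005.

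The genes of break formation included the member with the smallest p. Prdm9 encodes the histone methyltransferase that, through its zinc fingers, marks where meiotic recombination starts. It measured 1.30, 1.57, 1.6 and 1.59 CPM in DXO rats 2, 3, 6 and 8, and 1.83, 1.68, 2.20 and 2.37 CPM in CTRL rats 1, 4, 5 and 9. All DXO rats lay below all CTRL rats, as was so for 1.95% of all genes tested, and Prdm9 was the only member whose groups did not overlap. The log2 fold change was -0.41 ± 0.16 (SE), with a 95% interval from -0.75 to -0.075. It did not pass the threshold (edgeR adjusted p = 0.586; DESeq2 adjusted p = 0.64). Within rats 1 to 4 the log2 fold change was -0.29, and within rats 5 to 9 it was -0.52. The negative sign in both sets follows from the lack of overlap and adds no support. These sets were chosen after the data were seen.

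Mei1, which is needed for break formation in mouse, came next in p. It stood at 77.4, 72.4, 66.6 and 66.9 CPM in DXO rats 2, 3, 6 and 8, and at 85.3, 76.1, 75.3 and 72.9 CPM in CTRL rats 1, 4, 5 and 9. The groups overlapped through DXO rat 2, and the log2 fold change of -0.13 ± 0.06 did not pass (edgeR adjusted p = 0.749). Rec114 and Mei4 encode partners in one complex of the break machinery. Rec114 averaged 57.2 ± 4.97 CPM in DXO rats and 56.6 ± 4.61 CPM in CTRL rats (SD, n = 4 each), and Mei4 averaged 8.39 ± 1.29 and 9.14 ± 0.519 CPM in DXO and CTRL rats. Spo11, the topoisomerase-like enzyme that cuts the DNA, was near 1 CPM throughout, at 0.727, 1.15, 0.739 and 0.724 CPM in DXO rats and 0.915, 0.974, 1.14 and 0.839 CPM in CTRL rats. DXO rat 3 was just above the highest CTRL rat while the other DXO rats lay below all CTRL rats, and the interval of the log2 fold change, from -0.66 to 0.24, is among the widest.

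Stretches of promoter are shown here for 5 members, because short DNA elements tied to the control of meiosis genes lie in them. Prdm9 and Mei1 had the smallest p of the members, and Hormad1, Stag3 and Sycp3 show other arrangements of the same elements. RefSeq promoters (GRCr8 build, 250 bases before to 50 after each annotated start) were matched by symbol for 25 members. Both strands were searched for CACGTG, the E-box that MGA with MAX can bind, for TTCCCGC, an element of E2F factors such as E2F6, and for CNCCTCAG, reported in mouse as the motif of STRA8. MGA, MAX and E2F6 belong to a polycomb complex that keeps germline genes silent in mouse embryonic stem cells. Each sequence is written 5′ to 3′ on the strand of its gene, with these elements in capitals, and none of them overlap one another:
Prdm9: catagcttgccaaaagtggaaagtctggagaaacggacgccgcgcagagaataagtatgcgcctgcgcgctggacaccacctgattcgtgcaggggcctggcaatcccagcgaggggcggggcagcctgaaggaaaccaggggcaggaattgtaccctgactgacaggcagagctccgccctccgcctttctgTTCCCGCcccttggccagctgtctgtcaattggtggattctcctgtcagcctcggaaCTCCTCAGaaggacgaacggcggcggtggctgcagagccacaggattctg
Mei1: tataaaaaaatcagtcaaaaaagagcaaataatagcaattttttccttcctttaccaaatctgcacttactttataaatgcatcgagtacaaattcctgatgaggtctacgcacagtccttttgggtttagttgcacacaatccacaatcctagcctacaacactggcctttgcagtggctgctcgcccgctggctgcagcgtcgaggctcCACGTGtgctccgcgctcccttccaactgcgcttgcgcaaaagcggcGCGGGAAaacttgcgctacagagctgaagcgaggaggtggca
Hormad1: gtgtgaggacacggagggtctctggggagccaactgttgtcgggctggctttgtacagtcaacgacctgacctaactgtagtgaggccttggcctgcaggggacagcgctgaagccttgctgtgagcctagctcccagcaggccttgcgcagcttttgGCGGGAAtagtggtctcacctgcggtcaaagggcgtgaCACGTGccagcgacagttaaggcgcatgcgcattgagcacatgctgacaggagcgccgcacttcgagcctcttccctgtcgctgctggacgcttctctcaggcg
Stag3: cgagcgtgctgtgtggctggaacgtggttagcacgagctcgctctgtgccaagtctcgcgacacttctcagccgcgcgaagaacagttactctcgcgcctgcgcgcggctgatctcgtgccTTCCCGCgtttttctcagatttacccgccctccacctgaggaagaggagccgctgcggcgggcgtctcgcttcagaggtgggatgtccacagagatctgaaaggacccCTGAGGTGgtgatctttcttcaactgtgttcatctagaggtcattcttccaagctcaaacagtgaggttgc
Sycp3: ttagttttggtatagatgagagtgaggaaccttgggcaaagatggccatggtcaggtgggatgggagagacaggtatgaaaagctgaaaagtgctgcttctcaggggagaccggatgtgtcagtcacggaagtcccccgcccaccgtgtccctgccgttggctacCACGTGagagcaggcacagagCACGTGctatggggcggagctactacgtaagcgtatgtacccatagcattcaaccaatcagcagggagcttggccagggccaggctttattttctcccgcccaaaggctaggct

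These windows lie at chr1:65198688-65198987 on the minus strand for Prdm9, and on the plus strand at chr7:115470006-115470305 for Mei1, chr2:185805422-185805721 for Hormad1, chr12:22398158-22398457 for Stag3 and chr7:24761226-24761525 for Sycp3. Counting from 0 at the annotated start, Prdm9 holds an E2F element from position -57 and a STRA8 motif from the start itself, and Mei1 holds an E-box from -39 and an E2F element from 8. Hormad1 has an E2F element from -92 and an E-box from -54, Stag3 an E2F element from -129 and a STRA8 motif from -21, and Sycp3 a pair of E-boxes from -85 and -64. Over the 25 promoters, 7 held the E-box (28.0%, against 6.65% of 27457 RefSeq promoters of that length), 11 the E2F element (44.0% against 4.47%) and 8 the STRA8 motif (32.0% against 8.82%). Any of the 3 was present in 19 of the 25 (76.0% against 18.4%). The promoters of Dmc1, Mei4, Mnd1, Rec8, Trip13 and Ythdc2 held none of them. The CpG observed over expected ratio was above 0.6 in 18 of the 25 member promoters and in 36.8% of all promoters. Among promoters above that ratio the E-box was in 5 of the 18 member promoters and 10.9% of all, the E2F element in 9 of 18 and 9.45%, and the STRA8 motif in 6 of 18 and 10.1%. A match of letters is a description of these windows and shows no binding.

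The synaptonemal complex is the protein zipper that holds paired chromosomes together, and 6 of its genes were measured. Sycp1, its transverse filament, stood at 56.8, 57.7, 59.1 and 68.8 CPM in DXO rats 2, 3, 6 and 8, and 59.8, 53.1, 63.5 and 59.3 CPM in CTRL rats 1, 4, 5 and 9. The highest value was in DXO rat 8 and the lowest in CTRL rat 4, and the groups overlapped. Syce3, a central element protein, ranked next after Prdm9 and Mei1 in p, at 10.6, 11.0, 9.84 and 9.95 CPM in DXO rats and 11.7, 11.5, 12.3 and 10.5 CPM in CTRL rats. CTRL rat 9 fell among the DXO rats, and the log2 fold change of -0.15 ± 0.079 did not pass (edgeR adjusted p = 0.794).

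The axis proteins of the complex gave close values in both groups. Sycp3 averaged 50.6 ± 2.34 CPM in DXO rats and 52.7 ± 3.31 CPM in CTRL rats (SD, n = 4 each), and Sycp2, its partner on the lateral element, 26.3 ± 1.6 and 27.2 ± 2.73 CPM in DXO and CTRL rats. Of the central element genes, Syce1 had a log2 fold change of -0.029 with an interval from -0.15 to 0.092, and Tex12 one of -0.05 with an interval from -0.19 to 0.086.

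HORMAD1 and HORMAD2 bind the unsynapsed axis, and the ATPase TRIP13 removes them. Hormad2 had the smallest p of the members with a positive value, at 53.3, 48.8, 44.3 and 45.9 CPM in DXO rats 2, 3, 6 and 8, and 49.9, 44.5, 43.6 and 41.5 CPM in CTRL rats 1, 4, 5 and 9. CTRL rat 1 was above every DXO rat but rat 2, and the log2 fold change of 0.10 ± 0.068 did not pass (edgeR adjusted p = 0.869). Trip13, which mitotic cells also use, measured 116, 120.2, 119 and 116 CPM in DXO rats and 123, 116, 115 and 114 CPM in CTRL rats. Its log2 fold change was 0.0073 with an interval from -0.071 to 0.085, one of the narrowest of the set. Hormad1 stood at 32.4 ± 1.51 CPM in DXO rats and 32.7 ± 2.04 CPM in CTRL rats.

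Meiotic cohesin replaces subunits of the mitotic ring by its own, and all 4 of its genes had small negative values. Stag3 measured 242, 221, 229.7 and 231 CPM in DXO rats 2, 3, 6 and 8, and 251, 226, 240.4 and 230.2 CPM in CTRL rats 1, 4, 5 and 9. Smc1b averaged 198 ± 5.18 CPM in DXO rats and 204 ± 12.0 CPM in CTRL rats (SD, n = 4 each). The interval of the log2 fold change was -0.13 to 0.051 for Stag3 and -0.14 to 0.046 for Smc1b. For Rad21l1, a kleisin of prophase, it was -0.29 to 0.065.

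Rec8, the kleisin that holds sister chromatids together, varied more between rats of the same group than between the groups. It stood at 2.25, 2.09, 2.62 and 3.33 CPM in DXO rats 2, 3, 6 and 8, and at 2.02, 2.20, 3.41 and 3.29 CPM in CTRL rats 1, 4, 5 and 9. Rats numbered 1 to 4 had 2.02 to 2.25 CPM and rats numbered 5 to 9 had 2.62 to 3.41 CPM, whatever the treatment. What the numbers stand for beyond the animal is not given in the sources used here. The sets of numbers were fully apart for 2 of the 33 members, Rec8 and Smc1b (6.06%, against 9.29% of all genes tested). The log2 fold change of Rec8 was 0.049 within rats 1 to 4 and -0.16 within rats 5 to 9.

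Strand exchange, in which a broken end invades the partner chromosome, was represented by 7 genes. Dmc1, the meiosis-specific recombinase, measured 23.8, 22.2, 19.7 and 17.8 CPM in DXO rats 2, 3, 6 and 8, and 31.7, 24.2, 23.2 and 18.2 CPM in CTRL rats 1, 4, 5 and 9. Its coefficient of variation was 22.9% in CTRL rats, with rat 1 high and rat 9 near the lowest DXO rats, and the log2 fold change of -0.23 ± 0.16 did not pass (edgeR adjusted p = 0.885). Without CTRL rat 1 it came to -0.071. Mnd1 and Psmc3ip encode the pair of proteins that helps DMC1 load. Mnd1 averaged 50.7 ± 0.644 CPM in DXO rats and 50.1 ± 1.67 CPM in CTRL rats (SD, n = 4 each), and Psmc3ip 31.3 ± 1.71 and 32.3 ± 1.02 CPM in DXO and CTRL rats.

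Meiob and Spata22 encode a pair that binds single-stranded DNA together. Meiob stood at 5.28, 4.57, 4.31 and 4.05 CPM in DXO rats 2, 3, 6 and 8, and 4.24, 3.81, 4.74 and 3.98 CPM in CTRL rats 1, 4, 5 and 9. Spata22 was the gene with fewest counts of the set, at 0.90, 0.577, 0.596 and 0.398 CPM in DXO rats and 0.721, 0.514, 0.398 and 0.432 CPM in CTRL rats. Both were highest in DXO rat 2, and neither passed (edgeR adjusted p = 0.941 for Meiob and 0.95 for Spata22). Hsf2bp, which brings BRCA2 to meiotic breaks, averaged 43.0 ± 3.04 CPM in DXO rats and 43.2 ± 2.39 CPM in CTRL rats.

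Tex15, which acts in meiotic break repair and in transposon silencing in mouse, had more CPM than any other member, without correction for length. It measured 933, 1040, 1060 and 1067 CPM in DXO rats 2, 3, 6 and 8, and 969, 1079, 1078 and 1101 CPM in CTRL rats 1, 4, 5 and 9. The low values were DXO rat 2 and CTRL rat 1, and the log2 fold change was -0.044 with an interval from -0.15 to 0.065.

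Crossover genes stabilise the recombination intermediates that become exchanges. Tex11, which lies on the X chromosome in mouse, measured 43.7, 46.3, 49.1 and 44.2 CPM in DXO rats 2, 3, 6 and 8, and 43.9, 47.1, 42.9 and 40.9 CPM in CTRL rats 1, 4, 5 and 9. Msh4 and Msh5 encode a clamp on those intermediates. Msh4 spanned 2.12 to 2.35 CPM in DXO rats and 1.75 to 3.10 CPM in CTRL rats, where the extremes were rats 9 and 1. The other 2 genes likewise overlapped, with log2 fold changes of -0.098 ± 0.11 for Msh5 and -0.095 ± 0.083 for the helicase gene Hfm1.

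The remaining genes act at telomeres, on RNA and on chromatin. Majin, which ties telomeres to the nuclear envelope, had the smallest p of the negative values after Prdm9, Mei1 and Syce3, at 6.18, 5.81, 6.48 and 4.42 CPM in DXO rats 2, 3, 6 and 8, and 6.53, 7.69, 6.69 and 5.30 CPM in CTRL rats 1, 4, 5 and 9. DXO rat 8 was lowest of all, and the log2 fold change of -0.20 ± 0.14 did not pass (edgeR adjusted p = 0.874). Meioc and the RNA helicase gene Ythdc2 encode partners that clear mitotic transcripts as meiosis begins. Ythdc2 measured 80.7, 87.4, 81.9 and 88.1 CPM in DXO rats and 84.3, 85.5, 80.8 and 85.5 CPM in CTRL rats, and Meioc spanned 4.02 to 5.50 CPM in DXO rats and 4.48 to 5.58 CPM in CTRL rats. The groups overlapped in both genes. Brdt, a testis bromodomain protein, measured 23.3, 21.0, 19.0 and 17.8 CPM in DXO rats and 23.4, 21.1, 20.9 and 22.1 CPM in CTRL rats. DXO rats 6 and 8 lay below every CTRL rat and DXO rat 2 near the highest, with an interval of the log2 fold change from -0.28 to 0.07.

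**Figure D4:**
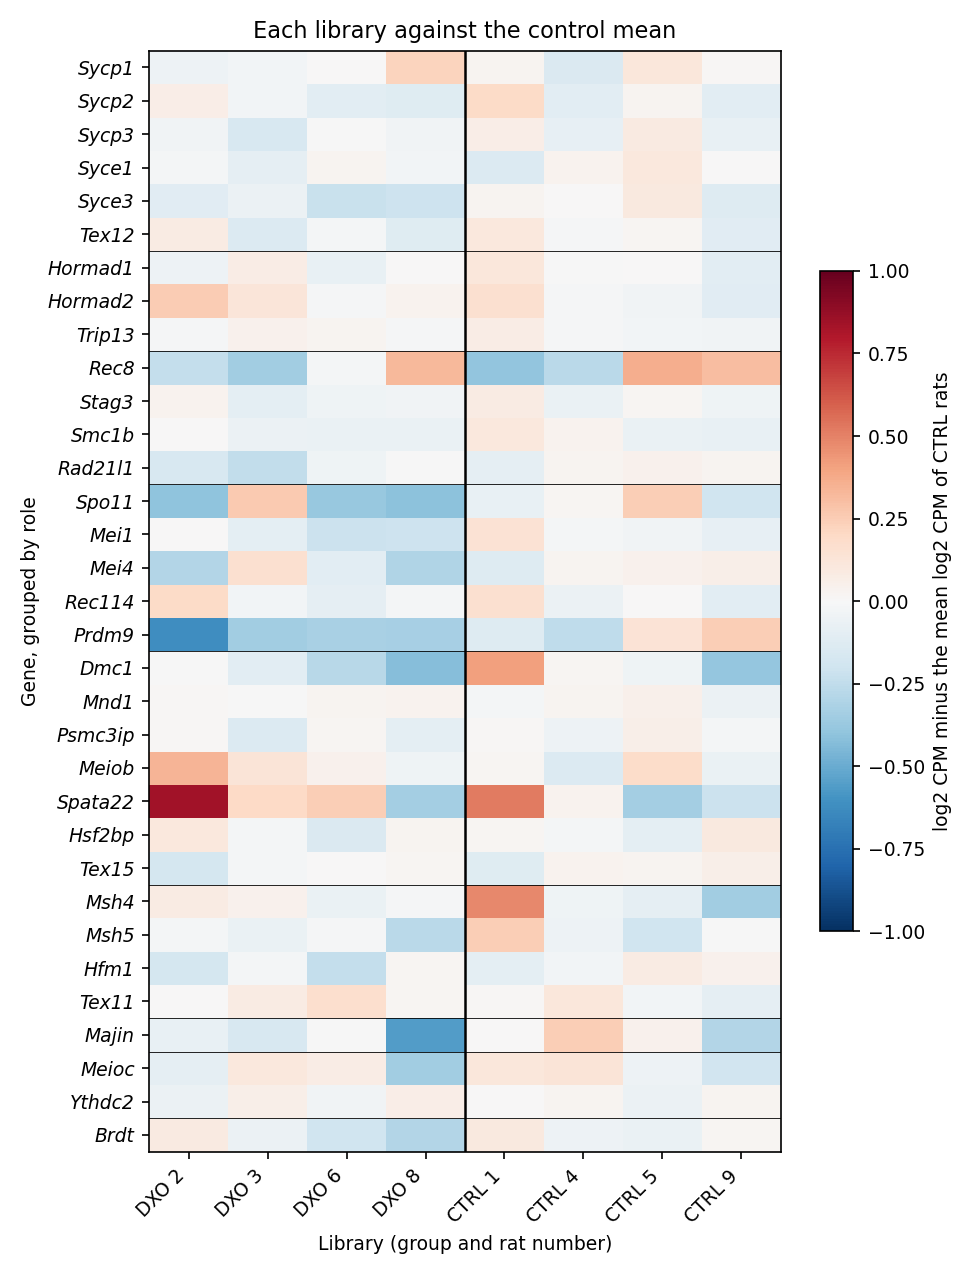
log2 CPM of each meiosis gene (rows, by role) in each library (columns, DXO rats left of the line) minus the mean log2 CPM of the CTRL rats; red is higher, blue lower. Prdm9 is blue in all 4 DXO rats, and Spo11 is blue in DXO rats 2, 6 and 8 (0.724 to 0.739 CPM). Rec8 is blue in rats 1 to 4 and red in DXO rat 8 and CTRL rats 5 and 9. Other strong colours fall in single rats, such as Spata22 in DXO rat 2 (0.90 CPM) and Msh4 in CTRL rat 1 (3.10 CPM).

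Control animals differed among themselves in these genes and in other lists. CTRL rat 1 was the highest control for 14 of the 33 members (42.4%, against 30.6% of all genes tested), and CTRL rat 9 was the lowest for 15 (45.5%, against 26.2%). CTRL rat 5 was the highest for 11 (33.3%, against 3742 of 16976 genes tested). Among the 19 chromatin repressors described below, CTRL rat 1 was highest for 57.9% and CTRL rat 9 lowest for 47.4%. CTRL rat 1 was also highest for 6 of 12 mitotic counterparts. Among 20 meiotic entry regulators it was highest for 3 and lowest for 11. Over the members, the median difference from the control mean on the log2 scale lay between -0.036 and -0.017 in the 4 DXO rats, and it was 0.027 in CTRL rat 1 and -0.063 in CTRL rat 9. The DXO medians therefore fell inside the range of the controls.

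Regulators of meiotic entry gave no call either. Of 20 such genes 0 passed with edgeR or DESeq2, and without adjustment edgeR gave p below 0.05 to 1 higher and 1 lower gene, where 4.19% and 2.56% of all genes tested were so. Stra8, the retinoic acid target that licenses meiosis, measured 47.4, 58.1, 63.1 and 51.0 CPM in DXO rats 2, 3, 6 and 8, and 44.2, 60.4, 62.4 and 62.1 CPM in CTRL rats 1, 4, 5 and 9. Its partner Meiosin measured 2.13, 1.64, 1.07 and 1.05 CPM in DXO rats and 3.11, 1.52, 1.84 and 1.34 CPM in CTRL rats. CTRL rat 1 was the lowest library for Stra8 and the highest for Meiosin, and the interval of the log2 fold change was -0.35 to 0.23 for Stra8 and -1.07 to 0.26 for Meiosin. The higher gene was Mybl1, a transcription factor of pachytene cells, at 0.44 ± 0.14 on the log2 scale (adjusted p = 0.416), and the lower one Dmrtb1, a transcription factor gene of the DMRT family, at -0.40 ± 0.13 (adjusted p = 0.429). Both were expressed in every library, and neither passed. Dazl had the most CPM of this list, 784 in DXO rats and 752 in CTRL rats.

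Chromatin repressors that silence germline genes were likewise without a call. Of 19 genes of the MGA-containing polycomb complex and of histone and DNA methylation, 0 passed with edgeR or DESeq2, and without adjustment edgeR gave p below 0.05 to 3 genes, all lower, where 2.56% of all genes tested were so. On the log2 scale the deacetylase gene Hdac2 stood at -0.12 ± 0.041 (adjusted p = 0.479), the polycomb methyltransferase gene Ezh2 at -0.20 ± 0.068 (adjusted p = 0.486) and E2f6 at -0.11 ± 0.049 (adjusted p = 0.70). Mga itself averaged 406 CPM in DXO rats and 411 CPM in CTRL rats, and Ehmt2, the histone methyltransferase G9a, 833 and 834 CPM in DXO and CTRL rats. Of 12 mitotic counterparts of the members, among them Smc1a, Rad21 and Stag2, 0 passed with edgeR or DESeq2 and 0 had an unadjusted p below 0.05. The unadjusted shares over all genes tested were 4.19% higher and 2.56% lower. The smallest p was that of Brd3, with a log2 fold change of -0.057, and the value for Stag2 was 0.05. Msh6 had the most CPM of these genes, 503 in DXO rats and 498 in CTRL rats.

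Among 31 further meiosis genes, a list chosen with earlier results of these data known, a single one was called higher, M1ap, and none lower. M1ap, which in mouse is needed for meiosis in males, measured 5.07, 1.95, 2.96 and 2.75 CPM in DXO rats 2, 3, 6 and 8, and 0.545, 0.673, 0.777 and 0.671 CPM in CTRL rats 1, 4, 5 and 9. All DXO rats lay above all CTRL rats, with rat 2 furthest, and the rise was 4.78-fold (95% interval 3.12 to 7.32; edgeR adjusted p = 0.018), where 0.106% of all genes tested were called higher. It was called by DESeq2 and by limma-voom (0.141% of all genes tested) too, but edgeR's adjusted p was 0.0622, 0.105, 0.0874, 0.115 and 0.0584 without CTRL rats 1, 4, 5 and 9 and DXO rat 8, one at a time. Over the list, 1 of 31 passed with edgeR and 1 with DESeq2, and the median log2 fold change was -0.007. For comparison, the p53 target Eda2r was 6.42-fold higher in DXO rats in the same libraries (edgeR adjusted p = 9.63e-05). It had the smallest adjusted p of 6 p53 targets examined, whose log2 fold changes ran from 0.28 to 3.10. Of these 6, edgeR called 3 and DESeq2 5, against 0.112% and 0.873% of all genes.

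The next genes on that list did not pass. Without adjustment edgeR gave p below 0.05 to 3 higher genes, M1ap, Rnf212 and Sgo2, and to 2 lower ones, Ankrd31 (-0.19 ± 0.071 on the log2 scale) and Helb (-0.20 ± 0.083). Of all genes tested 4.19% were so in the upward and 2.56% in the downward direction. The groups did not overlap for 3 higher genes, M1ap, Rnf212 and Spidr, and for 1 lower gene, Helb. Rnf212, a crossover factor, measured 32.8, 31.7, 32.2 and 33.7 CPM in DXO rats 2, 3, 6 and 8, and 28.3, 28.1, 30.9 and 28.3 CPM in CTRL rats 1, 4, 5 and 9. Groups lay apart in the upward direction for 2.77% and in the downward direction for 1.95% of all genes tested, and the log2 fold change of 0.17 ± 0.051 did not pass (edgeR adjusted p = 0.358; DESeq2 adjusted p = 0.119). Mael, a piRNA pathway gene, had the most CPM on the list, 259.7 in DXO rats and 257 in CTRL rats.

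**Figure D5:**
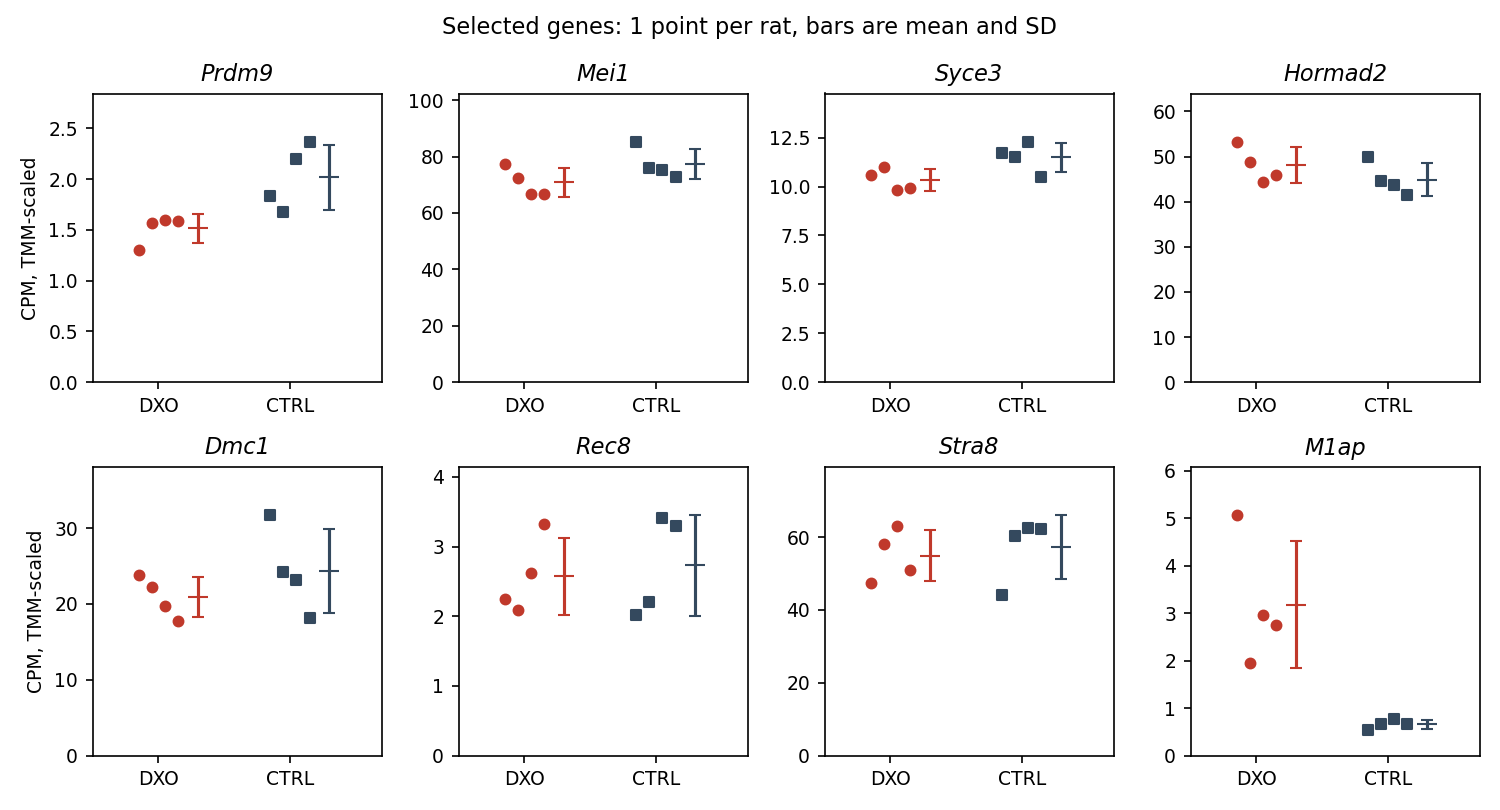
CPM (y axis from 0, TMM-scaled) of 8 genes in the DXO rats (left, red) and CTRL rats (right, grey), 1 point per rat in order of rat number, with mean and SD. M1ap is the only panel with a called difference; in Prdm9 all DXO points lie below the CTRL points, and in the other panels the groups overlap.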

How the data were processed

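Germ cell RNA of 8 rats (4 DXO, 4 CTRL, each a separate animal) was isolated with the PicoPure kit and sequenced after polyA selection, as the labels' protocols state. Without role or order, the submitters' processing notes list kallisto 0.48.0, featureCounts, DESeq2 1.40.2, fastp 0.23.2, Trimmomatic and the build rn6. The deposited values are estimated counts per gene, not normalized, of which 32.5% to 33.6% per library were not whole within 1e-06, and they were rounded before testing. No source used here gives the strand setting or the handling of shared reads, which leaves overlapping or copied genes uncertain.

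Tests ran in R 4.3.3 with edgeR 4.0.16 (filterByExpr, TMM, glmQLFit with robust fitting, quasi-likelihood F test, no covariate), with Benjamini-Hochberg adjustment over 16976 genes at 0.05. The common biological coefficient of variation was 8.82%. Standard errors came from the log2 fold change and F. Alternatives used DESeq2 1.42.0, limma 3.58.1 (voom), other scalings and filters, and each library left out. In every pair of libraries of a group the counts differed beyond sampling noise (chi-square over its degrees of freedom 6.22 or more).

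The members, gene lists and naming rule were chosen with earlier results of these data known. Values of all libraries are given for the members with the 4 smallest p in each direction and those with the highest CTRL CPM in each role; Dmc1, Rec8, Spo11 and others were added after their values were seen. The planned levels per coding length were not computed, as no protein or transcript lengths were at hand. No coordinates of rn6 are printed. Promoters are RefSeq's, GRCr8 build. Some genes of the lists are not reported here.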

Additional observations from a re-analysis of the deposited data

Results flagged for a closer look

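Over the 33 members, 66 groups of 4 rats were examined for 1 rat far from the other 3, and 5 were found, where chance gives about 1 in 20 groups, or 3.3. Smc1b stood at 205 CPM in DXO rat 2, above the 195 to 196 CPM of the other DXO rats. Prdm9 stood at 1.30 CPM in DXO rat 2, below the 1.57 to 1.6 CPM of the others. Spo11 stood at 1.15 CPM in DXO rat 3, above the 0.724 to 0.739 CPM of the others. In CTRL rat 1, Rad21l1 stood at 9.39 CPM, below the 10.2 to 10.3 CPM of the other CTRL rats, and Mei4 at 8.37 CPM, below their 9.32 to 9.50 CPM.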

How the results depend on the processing

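The count of members past the threshold was 0 under all 16 alternatives, and within rats 1 to 4 or rats 5 to 9 alone, a pair of fits chosen after seeing the data. The fit within rats 1 to 4 called 0 of all 17116 genes tested, so its 0 says nothing about the members. The filter at a mean of at least 1 CPM left 31 of the 33 members to test. Over the other alternatives the smallest adjusted p of any member was 0.352 (Mei1, rat-number set as a term), and over the single libraries left out it was 0.439 (Prdm9). Of 526 recomputed log2 fold changes 501 kept their direction and 25 changed sign. Trip13 came to -0.00014 by library size only and Hsf2bp to 0.0026 with limma-voom. With single libraries left out the ranges that crossed 0 were -0.025 to 0.079 for Sycp1, -0.091 to 0.018 for Sycp2, -0.073 to 0.0056 for Syce1, -0.044 to 0.025 for Hormad1, -0.001 to 0.031 for Trip13, -0.23 to 0.051 for Rec8, -0.047 to 0.072 for Rec114, -0.043 to 0.043 for Hsf2bp, -0.12 to 0.16 for Msh4, -0.12 to 0.023 for Meioc and -0.011 to 0.031 for Ythdc2. All 198 recomputed control levels moved by less than 1 SD. Leaving out 1 of the 4 control rats cannot move their mean that far, so those levels test nothing. The counts stayed at 0 for entry regulators, repressors, late markers and mitotic counterparts, and for the further meiosis genes the count of 1 (M1ap) ran from 0 to 1 with single libraries left out. Over all genes the count was 19, and 1 to 62 with single libraries left out, 53 without robust fitting, 61 with the rat-number set as a term and 169 with DESeq2. No paired analysis was possible because the groups share no rat number. Depth limits Spo11 and Spata22 most, at about 1 CPM or less.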
